A study of Mus musculus with 24 samples.

Results

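The mitochondrial carriers and porins described here are 10 genes, Slc25a3, Slc25a4, Slc25a5, Slc25a33, Slc25a34, Vdac1, Vdac2, Vdac3, Ucp2 and Mcu. They were taken by mouse gene symbol from the 47643 Ensembl gene rows of a count table of plantaris muscle, a fast hindlimb muscle, and all 10 were found. The table holds 24 samples of wild-type C57BL/6 mice, 11 that breathed normal air and 13 after 16 weeks of tobacco smoke. No transgene, deletion or further agent is named for either group, and the labels give neither age nor sex, nor say whether each sample came from a separate animal, so that p-values measure the spread between these samples. Libraries were made by 3′-end RNA sequencing, which counts transcripts by reads near their poly(A) ends. The series title concerns the aryl hydrocarbon receptor (AhR), a transcription factor that binds smoke components, and muscle impairment in smokers. The comparison below asks which of these transport genes had other transcript levels in smoke-exposed muscle.

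Metabolites and ions reach the mitochondrial matrix through 2 membranes. Porins, the voltage-dependent anion channels (VDAC), form pores in the outer membrane that pass ATP, ADP, phosphate and small ions. In the inner membrane, proteins of the SLC25 family each exchange particular solutes, and the calcium uniporter lets calcium into the matrix, where it stimulates oxidative enzymes. In a muscle fibre, the ADP/ATP carrier and the phosphate carrier bring the substrates of ATP synthase in and take the ATP made there out to the contractile apparatus.

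Total counts ranged from 2515697 to 4528845 per sample, and 3 counts corresponded to 0.662 to 1.19 CPM, the normalised read count scaled to library size. The tissue label was checked against skeletal muscle markers, and Acta1 (skeletal actin) and Myh4 (the fastest myosin heavy chain) stood at means of 52109 and 39487 CPM in air and 50670 and 44099 CPM in smoke. Among the 10159 genes tested, 195 differed between the groups past an adjusted p of 0.05, which is 1.92% of those tested. The lower calls alone made up 1.19%. At an unadjusted p under 0.05 the share was 15.5%, and 48.4% of the tested genes had a negative log2 fold change. Air replicate 11 had the lowest median correlation with its own group, 0.951 against 0.960 to 0.974 in the other 23 samples, and it stood apart for several of the carriers.

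Of the 10 genes, 9 passed the expression filter, and 1 of these, Slc25a34, was called between the groups. Slc25a34, a carrier whose substrate has not been settled, fell under smoke to 0.590 of its air level. The abundant transporters of energy metabolism, Slc25a4, Slc25a3, Vdac1 and Vdac2, differed by -0.11 to 0.0033 on the log2 scale, and none of them passed the test. Of the 9 tested genes, 8 had a negative log2 fold change and Vdac2 a positive one close to 0, and the median was -0.069 against 0.0066 over all tested genes. In none of the 10 were the CPM values of the groups fully separated, and such separation was seen in 0.0295% of tested genes.

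**Figure D1:**
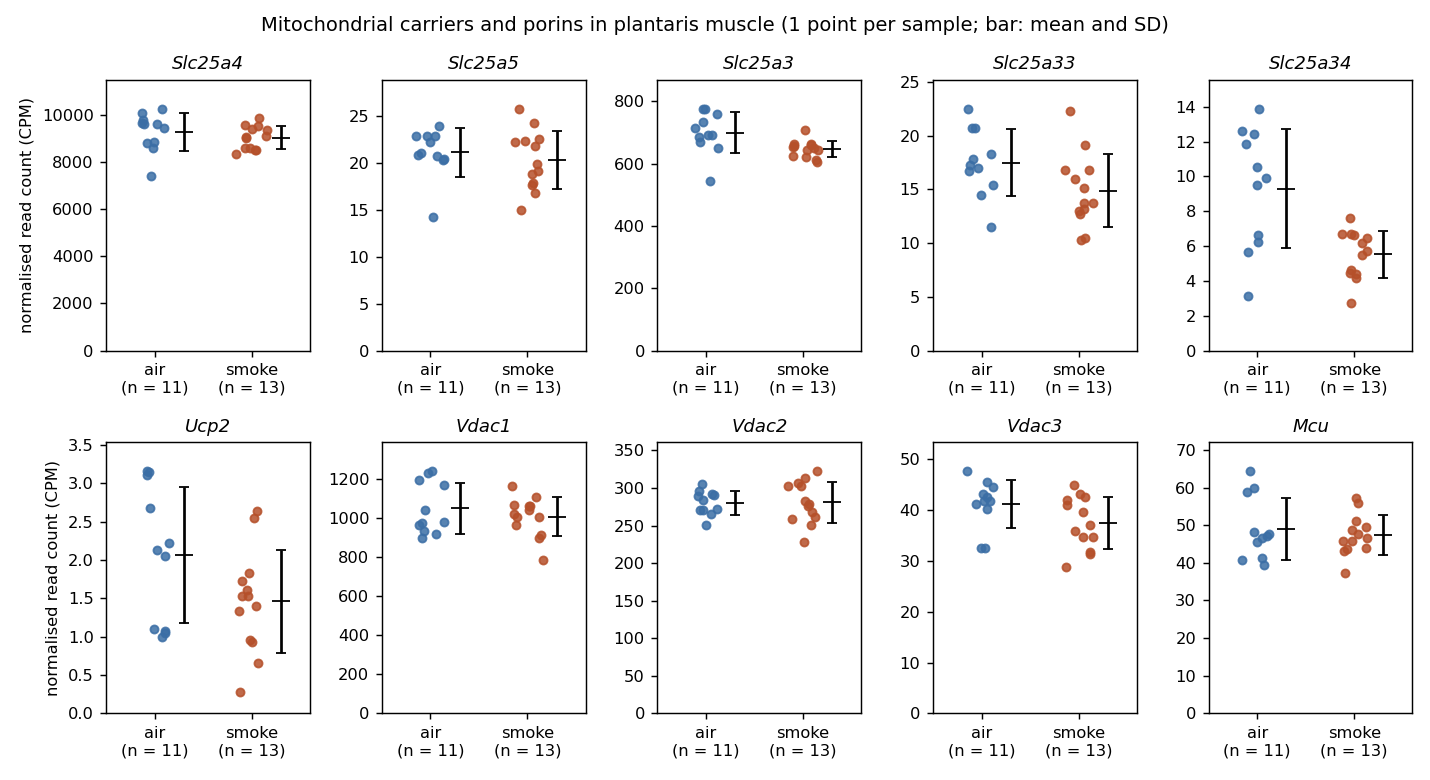
Normalised read counts in CPM (vertical axes from 0, 1 panel per gene) of the 10 genes in 11 air and 13 smoke samples, 1 point per sample, with the mean and SD as bars. For Slc25a34, 7 air samples lie above the highest smoke sample at 7.59 CPM, while for the other 9 genes at most 5 do.

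The genes differed widely in level. A 3′-end library gives reads from 1 place per transcript, so CPM values are not divided by length here, and comparing genes assumes that their 3′ ends were captured alike. As means over the 24 samples, Slc25a4 came first at 9141 CPM, where it was the 11th most abundant gene of the table and took 0.910% of all counts. Vdac1 followed at 1028 CPM, Slc25a3 at 670 CPM and Vdac2 at 281 CPM. These first 4 did not overlap with their neighbours in this order in any sample. Mcu at 48.2 CPM and Vdac3 at 39.2 CPM overlapped, with Mcu the higher in 21 of 24 samples. Slc25a5 at 20.7 CPM and Slc25a33 at 16.1 CPM overlapped as well, Slc25a5 being the higher in 20 of 24. Slc25a34 at 7.26 CPM and Ucp2 at 1.74 CPM closed the order, and each was below the gene before it in all 24 samples although the ranges touched.

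Slc25a4 (ENSMUSG00000031633, chromosome 8, 46206797 to 46211284, minus strand, GRCm38) encodes the ADP/ATP carrier of heart and skeletal muscle. It ranged from 7391 CPM through a median of 9598 to 10246 CPM in air, and from 8344 through 9058 to 9871 CPM in smoke. The groups overlapped, with air replicate 11 the only air sample below all smoke samples and 2 air samples above all of them. Smoke against air gave -0.039 on the log2 scale (SE 0.048, adjusted p = 0.761 in edgeR), and its 95% interval of -0.14 to 0.059 corresponds to a change between -9.03% and 4.15%.

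Slc25a5 (ENSMUSG00000016319, chromosome X, 36795651 to 36798807, plus strand) encodes the ADP/ATP carrier of most other and of growing cells. Its values ran from 14.3 through a median of 21.1 to 23.96 CPM in air and from 15.0 through 19.9 to 25.7 CPM in smoke. Air replicate 2 held the lowest value of all 24 samples, and 2 smoke samples exceeded the highest air sample. With a log2 fold change of -0.069 (95% interval -0.25 to 0.11), it did not pass (edgeR adjusted p = 0.779). Between these isoforms the muscle form made up nearly all counts: Slc25a5 gave 0.228 ± 0.0323% (SD, n = 11) of the counts of the pair in air and 0.225 ± 0.0329% (SD, n = 13) in smoke. Slc25a4 therefore had 446 ± 70.7 (SD) counts for each count of Slc25a5 in air, and the smoke samples averaged 453 ± 67.4 (SD); these shares were not tested and differ by less than 1 SD.

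Slc25a3 (ENSMUSG00000061904, chromosome 10, 91116574 to 91124059, minus strand) encodes the phosphate carrier, which supplies ATP synthase with phosphate. In air it ranged from 546 through a median of 692 to 776 CPM, and in smoke from 605 through 651 to 708 CPM. The smoke samples lay within the air range, and 12 of 13 were below the air mean of 699 ± 66.1 CPM (SD). Its log2 fold change of -0.11 (SE 0.049, 95% interval -0.21 to -0.013) passed unadjusted (p = 0.0271) and not after adjustment over all genes (edgeR adjusted p = 0.239). Air replicate 11, the lowest of all samples at 546 CPM, decided this: without it the log2 fold change was -0.15 and the edgeR adjusted p 0.0450. The annotation places Gm24119 on the same strand within Slc25a3, so reads of the 2 genes could not be told apart where they overlap.

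Slc25a34 (ENSMUSG00000040740, chromosome 4, 141618824 to 141623821, minus strand, with no annotated overlap) was the gene called. In air its values were 3.13 CPM at the lowest, 9.90 CPM at the median and 13.9 CPM at the highest, and in smoke 2.75, 5.74 and 7.59 CPM. All 13 smoke samples lay below the air mean of 9.31 ± 3.44 CPM (SD, n = 11), and 7 of 11 air samples lay above the highest smoke sample. The other 4 air samples, replicates 2, 6, 10 and 11 at 3.13, 6.22, 6.64 and 5.67 CPM, fell within the smoke range, so that the groups overlapped. The edgeR quasi-likelihood test gave -0.76 on the log2 scale (SE 0.18, 95% interval -1.13 to -0.39, adjusted p = 0.0201), a change of -41.0% with an interval of -54.3% to -23.7%. Depth limits this gene, since it had 9 to 52 counts per sample. With limma voom the log2 fold change was -0.70 and the call was lost (adjusted p = 0.0558). It was lost as well in edgeR with samples blocked by replicate number, at -0.71 (adjusted p = 0.0718). Over edgeR fits that left out 1 sample each the adjusted p ran from 0.00341 to 0.0413.

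Markers of other cell types moved with the groups beside this change. The 5 red blood cell genes summed to 486 to 1444 CPM in air and 369 to 883 CPM in smoke, and 3 of 5 were called lower, the globin genes Hba-a2, Hbb-bs and Hbb-bt (edgeR adjusted p = 0.0369, 0.0142 and 0.0229). DESeq2 also called 3, with Alas2 in place of Hba-a2 (DESeq2 adjusted p = 0.0578 for Hba-a2). The 6 genes of myelinating Schwann cells summed to 70.8 to 116 CPM in air and 108 to 811 CPM in smoke, and 6 of 6 were called higher, among them Ncmap, Gldn and Prx (edgeR adjusted p = 0.0242, 0.0261 and 0.0362), while limma voom called 2 of the 6. The median of this sum was 105 CPM in air and 162 CPM in smoke. Smoke replicates 2, 12 and 10 stood highest at 811, 587 and 555 CPM, and replicates 8, 9 and 11 lay within the air range at 113, 109 and 108 CPM. The calls of Hba-a2 and Prx were lost without any 1 of 10 and 9 samples. With the share of the most abundant gene as a covariate Hba-a2, Hbb-bt, Ncmap, Gldn and Prx were not called (edgeR adjusted p = 0.0579 to 0.150). With the myelin score the 3 globin genes kept log2 fold changes of -0.92 to -0.74 and were not called (edgeR adjusted p = 0.0649 to 0.105). With the blood score Gldn, Prx and Ncmap kept 1.06, 1.71 and 1.93 and were not called (edgeR adjusted p = 0.0740 to 0.154). With the blood marker score as a covariate, an alternative chosen after seeing the data, Slc25a34 kept a log2 fold change of -0.73 and lost the call (edgeR adjusted p = 0.127), and with the myelin score it had -0.77 (edgeR adjusted p = 0.0856). Macrophage and leukocyte markers summed to 94.0 to 165 CPM in air and 111 to 157 CPM in smoke, and 1 of 7 tested was called, Cd74, lower under smoke (edgeR adjusted p = 0.0273), a call lost without air replicate 7, air replicate 9 or smoke replicate 9. Cd74 kept a log2 fold change of -0.88 to -0.68 and was not called either without the expression filter, or with the blood score, the myelin score or the share of the most abundant gene as a covariate (edgeR adjusted p = 0.0524 to 0.133). Of the skeletal muscle, slow fibre, endothelial and adipocyte markers (8, 7, 6 and 6 tested) 0 were called by edgeR, DESeq2 or limma voom, and 1, 3, 1 and 2 passed unadjusted, against 15.5% of all tested genes. Their smallest edgeR adjusted p values were 0.228 for Myh4, 0.0784 for Myl2, 0.303 for Kdr and 0.200 for Retn. Without air replicate 11, Myh4 passed as higher (adjusted p = 0.0312) and Myl2 as lower (adjusted p = 0.0168), and Myl2 also without air replicate 10 or smoke replicate 11. Myl2 was called lower without the expression filter too (-0.47 on the log2 scale, edgeR adjusted p = 0.0132). In whole muscle, fewer cells of a type and less RNA per cell cannot be told apart.

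Slc25a33 (ENSMUSG00000028982, chromosome 4, 149744036 to 149774277, minus strand, overlapping Gm13068 on the opposite strand) encodes a carrier of pyrimidine nucleotides, which mitochondria need for their own DNA and RNA. It ranged from 11.5 through a median of 17.2 to 22.5 CPM in air and from 10.3 through 13.8 to 22.3 CPM in smoke. The ranges nearly coincided at the top, while 11 of 13 smoke samples lay below the air mean of 17.5 ± 3.12 CPM (SD). Its log2 fold change of -0.24 (SE 0.12, 95% interval -0.47 to -0.0010) passed unadjusted (p = 0.0490) and not after adjustment (edgeR adjusted p = 0.319).

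The upstream sequences of the called carrier Slc25a34 and of Slc25a33, which was not called, are shown as the 250 bases before each RefSeq transcript start (GRCm38.p6, both on the minus strand, written 5′ to 3′ along the gene), at chr4:141623835-141624084 and chr4:149774268-149774517. Capitals mark matches on either strand to GCGTG (the core of the AhR element), AAGGTCA (a half-site of oestrogen-related receptors, which regulate mitochondrial genes), the motif of nuclear respiratory factor 1 (NRF1), GGGCGG (GC box), CCAAT and TATAAA. No 2 matches overlap in these windows.
Slc25a34: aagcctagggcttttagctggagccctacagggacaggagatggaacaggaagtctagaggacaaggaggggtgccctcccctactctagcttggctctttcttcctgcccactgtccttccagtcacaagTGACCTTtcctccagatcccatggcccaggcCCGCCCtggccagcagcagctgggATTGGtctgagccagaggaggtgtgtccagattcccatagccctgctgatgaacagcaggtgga
Slc25a33: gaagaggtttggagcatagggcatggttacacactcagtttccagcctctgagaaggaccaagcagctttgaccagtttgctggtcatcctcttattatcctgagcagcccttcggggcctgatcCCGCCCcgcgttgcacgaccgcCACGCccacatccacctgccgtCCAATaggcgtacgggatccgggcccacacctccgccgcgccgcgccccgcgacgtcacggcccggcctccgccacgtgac

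In the Slc25a34 window the oestrogen-related receptor half-site lay 119 to 113 bases before the start, the GC box at 88 to 83 and the CCAAT match at 64 to 60 bases. The AhR core was not among the letters of this window, and it occurred once in that of Slc25a33, 103 to 99 bases before the start. Windows were found for 8 of the 10 genes. The AhR core matched in 6 of these 8 genes (Slc25a3, Slc25a5, Slc25a33, Vdac1, Ucp2 and Mcu), against 28.2% of 32851 windows of the same length, and the GC box in 6 against 32.7%. The half-site matched in 2 (Slc25a34 and a window of Vdac1, which has more than 1), against 4.1%, and the NRF1 letters in 1 (Slc25a3), against 3.7%. CCAAT matched in 4 (Slc25a4, Slc25a33, Slc25a34 and Mcu), against 33.8%, and TATAAA in 0, against 12.4%. The base composition of the windows differs, from 58.4% G and C for Slc25a34 to 68.4% for a window of Vdac1, with 64.4% for Slc25a33. Every window of these genes lies above the median of 52.4% over all windows, and GCGTG and GGGCGG are made mostly of G and C. The counts are by gene and the shares by window, so that Vdac1 could match in more than 1 window. Whether the matches exceed those of windows of like composition was not tested. A match of letters is a description and not a measured binding site.

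Ucp2 (ENSMUSG00000033685, chromosome 7, 100493337 to 100502020, plus strand) encodes an uncoupling protein found in many tissues and in immune cells. It stayed under the expression filter, with 1 to 13 counts per sample, 79 counts in all over 11 air samples and 64 over 13 smoke samples. Its values ranged from 1.00 through a median of 2.13 to 3.16 CPM in air and from 0.275 through 1.53 to 2.64 CPM in smoke, with 4 of 11 air samples above the highest smoke sample and 4 smoke samples below the lowest air sample. The means were 2.07 ± 0.892 (SD) and 1.46 ± 0.673 CPM (SD), and the difference of -0.605 CPM was not beyond the spread between samples (two-sided permutation test with 100000 resamples, p = 0.0736). In 4 of the 24 samples the count was 3 or lower, so that depth limits this gene, and the smallest detectable difference was not measured. Its last exons overlap Dnajb13 on the opposite strand, and that gene held 3 counts over all samples.

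**Figure D2:**
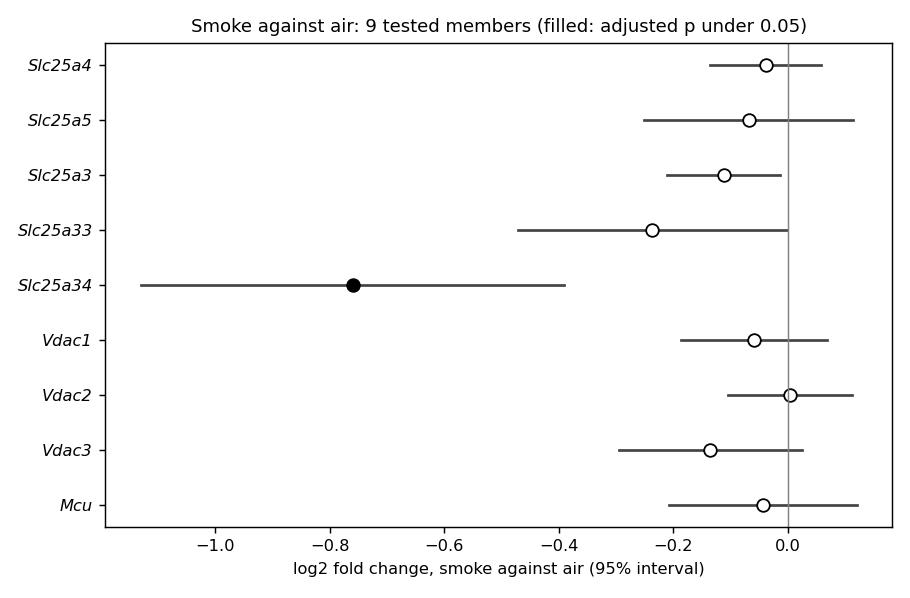
Log2 fold change of smoke against air (horizontal axis) with its 95% interval as a line for the 9 genes tested; the filled point passed an adjusted p of 0.05. Slc25a34 at -0.76 stands apart from the other 8, which lie between -0.24 and 0.0033.

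Among the porins, Vdac1 (ENSMUSG00000020402, chromosome 11, 52360860 to 52389397, plus strand), the main outer-membrane channel and a docking site of hexokinase, ranged from 898 through a median of 978 to 1239 CPM in air. In smoke it ranged from 787 through 1020 to 1164 CPM. Air samples were spread to the upper side, with 4 above the highest smoke sample, although the smoke median was the higher. The fitted log2 fold change was -0.059 (95% interval -0.19 to 0.068, edgeR adjusted p = 0.716).

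Vdac2 (ENSMUSG00000021771, chromosome 14, 21825238 to 21845879, plus strand, overlapping Comtd1 on the opposite strand), which also holds the cell death protein Bak in the outer membrane, ranged from 251.2 through 284 to 305 CPM in air and from 228 through 279 to 322 CPM in smoke. Smoke samples reached beyond air on both sides, 3 above and 2 below. On the log2 scale the difference was 0.0033 (95% interval -0.10 to 0.11, edgeR adjusted p = 0.987), and its sign changed in 4 of 12 other settings.

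Vdac3 (ENSMUSG00000008892, chromosome 8, 22577075 to 22593813, minus strand), the least abundant porin, ranged from 32.4 through 41.8 to 47.5 CPM in air and from 28.8 through 37.0 to 44.9 CPM in smoke. Here 3 smoke samples lay below all air samples and 2 air samples above all smoke samples. Smoke against air came to -0.14 on the log2 scale (95% interval -0.30 to 0.024, edgeR adjusted p = 0.428). The shares of the 3 porins in their summed counts were not tested between the groups. Vdac1 gave 76.4 ± 2.15% (SD) of their counts in air and 76.0 ± 0.989% (SD) in smoke, Vdac2 20.6 ± 1.70% and 21.2 ± 0.931%, and Vdac3 3.05 ± 0.577% and 2.84 ± 0.421%.

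Mcu (ENSMUSG00000009647, chromosome 10, 59446984 to 59616692, minus strand, overlapping Gm10322 on the opposite strand) encodes the pore of the mitochondrial calcium uniporter. It ranged from 39.3 through a median of 47.2 to 64.3 CPM in air and from 37.3 through 46.5 to 57.3 CPM in smoke. The groups shared most of their range, with 3 air samples above the highest smoke sample and 1 smoke sample below the lowest air sample. Its fitted log2 fold change was -0.043 (95% interval -0.21 to 0.12, edgeR adjusted p = 0.860).

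Several of these genes have processed copies in the genome that could share reads. Over the last 400 bases of the coding transcripts, copies with at least 90% identity over at least 200 bases were found for Slc25a5 (Slc25a5-ps, 94.5%), Vdac1 (Gm6008, Gm13360 and Gm8459, 90.6 to 91.7%) and Vdac2 (Gm7832, 97.8%). The copies held 0 counts in the table, except Gm7832 with 3 against 23499 of Vdac2. How reads that match more than 1 place were handled is not given in the sources used here, so levels of these genes could be too low or too high by reads dropped or gained.

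Other genes of mitochondrial transport were read from lists. Of 46 other SLC25 family genes, 29 were tested, 2 were called lower and 0 higher, and the median log2 fold change was -0.052. At an unadjusted p under 0.05, 5 were lower and 1 higher. Over all tested genes, 1.92% were called and 15.5% passed unadjusted, in either direction. The higher one, Slc25a1, the citrate carrier, had the largest fold change of the 29, at 4.75 ± 1.79 CPM (SD) in air and 7.13 ± 2.33 CPM (SD) under smoke (0.59 on the log2 scale, edgeR adjusted p = 0.108), with 12 of 13 smoke samples above the air mean. Slc25a36, another pyrimidine nucleotide carrier, fell from 34.6 ± 4.79 to 25.7 ± 4.31 CPM (SD), by -0.43 on the log2 scale (edgeR, SE 0.089, adjusted p = 0.00776), with all 13 smoke samples below the air mean. Slc25a39, which brings glutathione into mitochondria, fell from 42.1 ± 4.94 to 34.3 ± 3.93 CPM (SD), by -0.29 on the log2 scale (edgeR, SE 0.074, adjusted p = 0.0274), also in 13 of 13 samples. With the blood marker score as a covariate Slc25a39 was at -0.28 on the log2 scale and lost the call (edgeR adjusted p = 0.155). Slc25a36 was at -0.37 with the myelin score and lost it there (edgeR adjusted p = 0.0890). Slc25a39 also lost the call, at adjusted p values up to 0.0562, without air replicate 6, air replicate 7 or smoke replicate 8. Ucp3, the uncoupling protein of skeletal muscle, averaged 19.2 ± 3.16 in air and 17.9 ± 3.99 CPM (SD) under smoke (edgeR adjusted p = 0.719), and Ucp1, that of brown fat, had 1 count in all 24 samples together.

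Of the partners of the calcium uniporter, 8 were tested and 0 called by edgeR, DESeq2 or limma voom (2 passed an unadjusted p of 0.05, both lower, against 15.5% of all tested genes in either direction). The smallest p belonged to Letm1, an inner-membrane ion exchanger, with 53.2 ± 3.83 CPM (SD) in air against 47.7 ± 5.06 CPM (SD) (edgeR adjusted p = 0.202). Smdt1, the small subunit that links pore and gatekeepers, was at 186 and 170 CPM (edgeR adjusted p = 0.268).

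All 16 tested ATP synthase genes had a negative log2 fold change, with a median of -0.13, where 48.4% of all tested genes were negative. By edgeR and by limma voom 2 were called lower, and by DESeq2 3, with Atp5mpl as the third. Atp5g1, a gene of the rotor ring, fell from 224 ± 23.1 to 194 ± 9.49 CPM (SD), by -0.21 on the log2 scale (edgeR, adjusted p = 0.0278). Atp5j2, a subunit of the membrane part, fell from 750 ± 57.5 to 663 ± 47.1 CPM (SD), by -0.18 on the log2 scale (edgeR, adjusted p = 0.0472). The Atp5g1 call was lost without air replicate 8 (edgeR adjusted p = 0.0615). The Atp5j2 call was lost without any 1 of 17 of the 24 samples (edgeR adjusted p up to 0.0871) and held only without air replicate 1, 4, 9 or 10 or smoke replicate 1, 10 or 13. Without the expression filter neither was called (edgeR adjusted p = 0.0664 for Atp5g1 and 0.131 for Atp5j2). With the blood or the myelin score as a covariate the log2 fold changes were -0.22 and -0.20 for Atp5g1 and -0.16 and -0.21 for Atp5j2, and neither was called (edgeR adjusted p = 0.0774 to 0.242). With the slow fibre score Atp5j2 was at -0.18 and lost the call as well (edgeR adjusted p = 0.0565). Among 11 mitochondrial content markers 11 were negative, at a median of -0.14, and 0 were called by edgeR or limma voom, although 8 passed an unadjusted p of 0.05, all lower, against 15.5% of all tested genes in either direction. DESeq2 called 2 of them lower, Cox4i1 and Uqcrc1. Uqcrc1, a core subunit of complex III, had the smallest p of this list at 889 ± 86.8 and 791 ± 46.9 CPM (SD, edgeR adjusted p = 0.0679), and passed without smoke replicate 13 (adjusted p = 0.0333).

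Of 10 tested genes for proteins that bind porins or work beside them, 0 were called by edgeR, DESeq2 or limma voom (1 lower and 1 higher at an unadjusted p of 0.05, against 15.5% of all tested genes). Ckmt2, the mitochondrial creatine kinase that takes up the ATP exported by Slc25a4, averaged 1488 ± 179 CPM (SD) in air against 1318 ± 87.3 CPM (SD) under smoke (edgeR adjusted p = 0.102), and passed without air replicate 11 (adjusted p = 0.00857). Hk2, the muscle hexokinase that docks on Vdac1, was at 509 and 475 CPM (edgeR adjusted p = 0.624). Of 10 outer-membrane import genes 0 were called by edgeR, DESeq2 or limma voom, and 0 passed unadjusted, with Mtx2 of the smallest p (edgeR adjusted p = 0.332). Of 8 genes of carrier import and the pyruvate carrier 0 were called by edgeR, DESeq2 or limma voom and 1 passed unadjusted, Timm10, a chaperone that guides carriers to the inner membrane, at 31.5 ± 5.18 and 26.4 ± 3.80 CPM (SD, edgeR adjusted p = 0.127).

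Of 8 tested genes under control of fasting and PPAR, 2 were called, both lower, against 1.92% of all tested genes in either direction. Pdk4, which switches muscle from glucose to fat by blocking pyruvate dehydrogenase, fell from 5.32 ± 2.20 to 2.36 ± 1.29 CPM (SD), by -1.14 on the log2 scale (edgeR, adjusted p = 0.0165). Depth limits Pdk4, which had 1 to 36 counts per sample, with its lowest smoke sample at 0.319 CPM. Hadha, an enzyme of fatty acid oxidation, fell from 230 ± 27.2 to 183 ± 19.9 CPM (SD), by -0.33 on the log2 scale (edgeR, adjusted p = 0.00427). Pdk4 was at -1.23 on the log2 scale with the blood score and at -0.79 with the myelin score, and was not called in either fit (edgeR adjusted p = 0.0731 and 0.247). With the share of the most abundant gene as a covariate it was at -1.04 and lost the call (edgeR adjusted p = 0.0519).

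**Figure D3:**
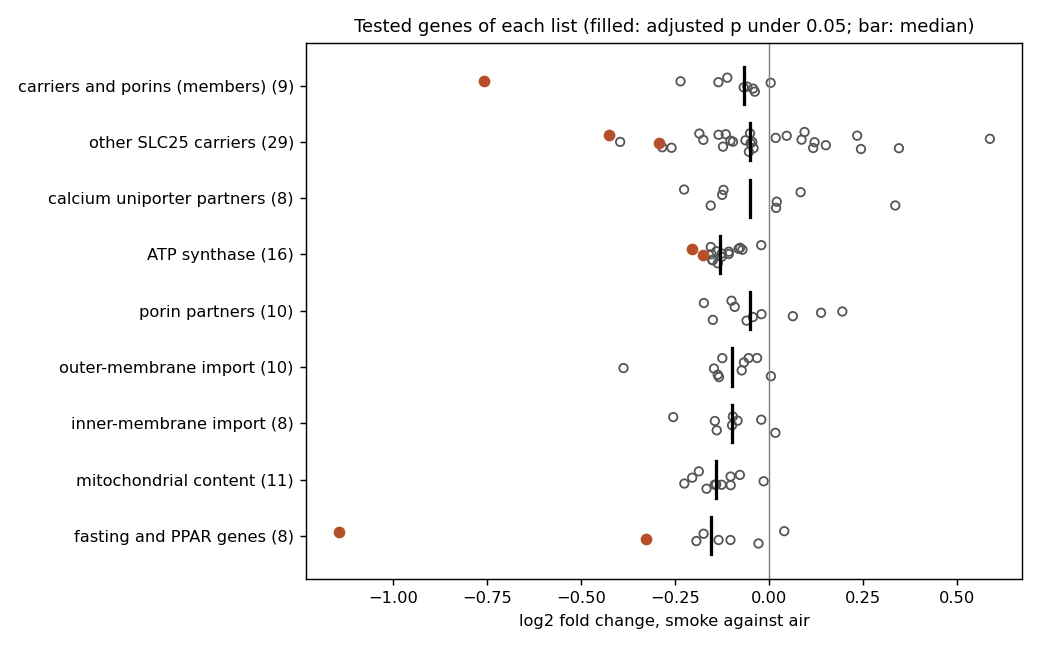
Log2 fold change of smoke against air (horizontal axis) for the tested genes of 9 lists, 1 point per gene, with the median of each list as a bar and called genes filled. Medians lie between -0.16 and -0.052, and all 7 called genes shown, Slc25a34 among them, are lower under smoke.

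Within groups, the 9 tested genes were compared pair by pair across samples on log2 CPM, 72 relations in all, and 1 passed Benjamini-Hochberg adjustment of Pearson's r. In smoke (n = 13), Vdac1 and Vdac2 varied together, with r 0.85 (permutation p = 0.00027, adjusted p = 0.0194) and Spearman's rho 0.81 (permutation p = 0.00133, adjusted p = 0.0958). Without the 2 samples farthest from the Vdac1 median r was 0.69. In air (n = 11) the same pair had r 0.46 (permutation p = 0.147) and rho 0.39 (permutation p = 0.237), and whether the groups differ in this relation was not tested. Smoke samples high in Vdac1 were thus high in Vdac2, from smoke replicate 2, the lowest for both at 787 and 228 CPM. The isoforms Slc25a4 and Slc25a5 did not show such a relation, with r 0.22 in air (permutation p = 0.454, rho 0.19, permutation p = 0.576) and 0.32 in smoke (permutation p = 0.282, rho 0.20, permutation p = 0.504). Nor did the third porin, Vdac3, in smoke, with r 0.19 to Vdac1 (permutation p = 0.544) and 0.10 to Vdac2 (permutation p = 0.741). In air Vdac3 had r -0.68 to Vdac1 (permutation p = 0.0183, adjusted p = 0.330). The strongest negative relation was that of Vdac1 and Mcu in air, at r -0.72 (permutation p = 0.0153, adjusted p = 0.330) and rho -0.75 (permutation p = 0.00997, adjusted p = 0.239), and in smoke r was -0.026 (permutation p = 0.934, rho 0.13, permutation p = 0.666). All values of a sample share its library and scaling.

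**Figure D4:**
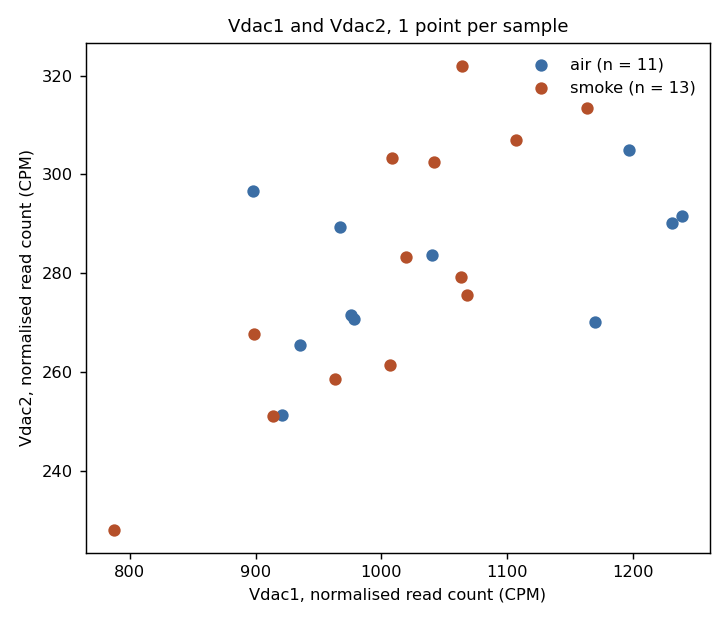
Vdac1 (horizontal axis) against Vdac2 (vertical axis), normalised read counts in CPM, 1 point per sample for 11 air and 13 smoke samples; neither axis starts at 0. The smoke samples run from 787 and 228 CPM upwards with r 0.85 on log2 values, and the air samples are more scattered.

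For each tested gene, the genes with the most similar pattern were sought among about 4025 genes with a mean of at least 20 CPM, by Pearson's r of log2 CPM centred within groups over all 24 samples, given as a description without a test. Slc25a4 was most like Sdhc, a membrane subunit of succinate dehydrogenase, at r 0.92 (rho 0.83), and Thoc7, a factor of mRNA export, at r 0.90 (rho 0.91). Slc25a3 was most like Cdnf at r 0.89 (rho 0.72) and Sod2, the superoxide dismutase of the matrix, at r 0.87 (rho 0.73). Vdac1 was most like Ppp1cb, a catalytic subunit of protein phosphatase 1, at r 0.86 (rho 0.84) and Chchd3, a protein of the cristae junctions, at r 0.85 (rho 0.86). The nearest genes of Vdac2 were Hist1h1c and Psmd8 (r 0.78 and 0.77), of Vdac3 Lamtor4 and Pde4a (r 0.71 and 0.65), and Ethe1 was near to Mcu (r 0.73). For Slc25a5 they were Adk and Pde4b (r 0.77 and 0.71), and for Slc25a33 Bcl2 and 1700120C14Rik (r 0.73 and 0.70). Slc25a34 had the weakest likenesses, to Prpf19 (r 0.69) and Mcl1 (r 0.65), the latter at 0.75 in air and 0.33 in smoke.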

How the data were processed

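The deposited table holds unnormalised read counts by Ensembl identifier for 24 plantaris samples, from 1 lane per the file headers. QuantSeq 3′ libraries were used per the labels' protocols. STAR, DESeq2 and mm9 are named in the submitters' processing notes, without roles or versions; the annotation, read filters and strand use are not given in the sources used here. Symbols and coordinates came from GENCODE M21 (GRCm38), which held 99.1% of the IDs, and may differ from the annotation counted with. Upstream sequences came from RefSeq (GRCm38.p6).

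The test was that of edgeR 4.0.16 (R 4.3.3): filterByExpr (minimum count 10), TMM scaling, and the quasi-likelihood F-test of smoke against air on all samples without covariates, Benjamini-Hochberg adjusted over 10159 genes, called under 0.05. Intervals are the log2 fold change ± t times its SE. CPM are on TMM-scaled libraries. The fit was tested on simulated counts. Floors cover counting error only, since reads may include PCR copies. Counts of same-group samples differed beyond sampling noise in all 133 pairs (chi-square of 2.52 or more per gene), so none were merged. Copies were sought with blastn 2.17.0. Alternatives used DESeq2 1.42.0 and limma 3.58.1, other scalings and filters, covariates, a replicate block and leaving out each sample.

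The genes and lists were chosen with earlier results of these data known. Named genes were all 10 members, the called genes of each list (at most 4 in each direction by p, otherwise that with the smallest p), and the 2 nearest genes of each member. Acta1, Smdt1, Hk2, Ucp1, Ucp3, Slc25a1, Alas2, Cox4i1 and Atp5mpl were named after their values were seen. Of the genes this rule names, 2 are not reported here.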

Additional observations from a re-analysis of the deposited data

How the results depend on the processing

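Slc25a34 was called lower in 8 of 12 other settings, and its log2 fold change stayed between -0.83 and -0.70. No member was called, and the count of 1 became 0, with limma voom (Slc25a34 at -0.70, adjusted p = 0.0558), with the replicate block (-0.71, edgeR adjusted p = 0.0718), and with the blood (-0.73) or myelin (-0.77) marker score as a covariate; those 2 covariates and a slow fibre score were chosen after seeing the data. Replicate numbers occur in both groups but nothing ties them to a shared animal or batch: deviations of the 11 same-numbered pairs correlated at a mean of -0.0059, and 2 of 11 air samples correlated best with their own number. Under the block, fitted on the 22 samples with a shared number, 53 genes were called higher and 85 lower, against 74 and 121. Leaving out 1 sample at a time, 1 to 2 members were called lower, the second being Slc25a3 without air replicate 11, and 0 higher; over all genes 47 to 103 were higher and 92 to 163 lower, and over the 8 functional lists 4 to 9 lower and 0 to 1 higher. DESeq2 called 121 genes higher and 202 lower, the blood score gave 18 and 38 and the myelin score 25 and 58, and both scores left 2 list genes lower, against 6. Fold changes near 0 changed sign without passing: Vdac2 to -0.0053 without a filter, -0.016 under the block, -0.020 with the blood and -0.0019 with the slow fibre score, and, leaving out samples, between -0.017 and 0.024; Mcu to 0.0014 and Vdac1 to 0.0080 with the share of the most abundant gene as a covariate; Mcu, leaving out samples, lay between -0.075 and 0.0037; and Slc25a4 to 0.0011 with the myelin score. Prx, called higher at 1.48, was at -0.13 with the myelin score, which is built from 6 markers that include it. Under the block Atp5g1, Atp5j2 and Cd74 were not called (edgeR adjusted p = 0.0808, 0.141 and 0.0532), at -0.21, -0.19 and -0.76, nor were Hbb-bt, Ncmap and Prx (edgeR adjusted p = 0.0702, 0.0808 and 0.0980), at -0.69, 1.31 and 0.99. For the other changes the cause was not tested. In all, 97 of 108 member comparisons over 12 settings, and 204 of 216 over left-out samples, kept direction and side of the threshold. Among the 10 members, Slc25a34 and Ucp2 had the fewest counts.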
